A study of Bos taurus with 14 samples.

Results

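Fatty acid beta-oxidation shortens fatty acids stepwise to acetyl-CoA. Its enzymes were followed here in mammary gland tissue of dairy cows fed with or without linseed. Of 7 enzymes chosen by symbol, 6 were matched to a probe set: HADHA, HADHB, ACADVL and CPT2 of the mitochondrion, and ACOX3 and ACOT8 of the peroxisome. ACADM is not analysed here. These 6 stood among 6697 symbols matched on the array, each had a single probe set, and all 6 passed the filter on dim probe sets (mean above 4.59 log2). The rule that picked them was a list of symbols and used no threshold on values. That list was chosen with earlier results of these data known.

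Expression was measured in 14 Holstein-Friesian cows of 1 herd, with 1 Affymetrix bovine array per cow. The Omega cows (n = 7) received a basal diet with a concentrate containing linseed, which is rich in the omega-3 fatty acid alpha-linolenic acid. The Control cows (n = 7) received the basal diet and a concentrate without linseed. Both diets began 3 weeks ahead of the expected calving and ended 6 weeks past calving, and the cows formed 7 blocks numbered 302 to 308, with 1 cow of each diet in a block. The labels give parity 1 to 4 for Omega cows and 1 to 6 for Control cows, and the design text counts parities differently, so the labels were used as given. All 14 cows, those with the label 1 included, carry a milk yield from an earlier lactation. No age or sampling day is given in the sources used here.

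In the mitochondrial route, long-chain fatty acids enter as carnitine esters. CPT2, on the inner membrane, turns them back into acyl-CoA, and ACADVL catalyses the first dehydrogenation of very long chains. The next steps for long chains belong to the trifunctional protein, whose alpha subunit HADHA hydrates and dehydrogenates and whose beta subunit HADHB carries out the final thiolysis. In peroxisomes, acyl-CoA oxidases such as ACOX3, which acts on branched chains, start the cycle and release hydrogen peroxide, and ACOT8 is a thioesterase that frees acids from CoA. Lactating mammary epithelium mainly makes and exports fat.

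Control 302 and Control 304, the Control cows of those blocks, stood apart from the rest. They lay at 43.7 and 46.4 on principal component 1 (51.0% of the variance), against -18.1 to 10.8 for the other 12 cows. Of all 7518 tested probe sets, 37.2% placed both cows above (21.7%) or both below (15.5%) the other 12. Luminal epithelium markers (7 of 9 matched) averaged 12.00 and 11.93 log2 in these 2 cows against 11.05 to 11.72 in the others, and fibroblast markers (7 of 7) averaged 10.43 and 10.21 against 9.05 to 9.64. Of the luminal markers, KRT8 was at 10.57 and 10.81 against 6.90 to 9.19 and EPCAM at 12.04 and 11.91 against 10.33 to 11.29, and KRT19 and CLDN4 lay within the range of the other 12. The milk protein genes LALBA, CSN1S1 and CSN3 were at 13.46 log2 or above in every cow. LALBA of Control 302 and CSN1S1 of Control 304 lay just below the other 12, and CSN3 of both cows just above them. Inflammation markers (5 of 6) averaged 6.13 and 8.50 against 4.56 to 6.17. Among them SAA3 was at 12.80 and 13.82 against 6.70 to 10.20, and HP, S100A8 and S100A9 were above the other 12 in Control 304 and not in Control 302. Leucocyte markers (6 of 8) averaged 5.76 and 5.83 against 5.00 to 5.59. Among these, CD68, CD3D and LYZ were above the other 12 in both cows. CD14 and ITGAM lay within the range of the other 12, and CD3E was above it in Control 304 only. Endothelial markers (3 of 4) averaged 5.56 and 5.38 against 5.36 to 5.73. Of the adipocyte list 5 of 7 markers were matched. The list averaged 5.35 and 5.08 against 5.37 to 5.57. PLIN1, LEP and CIDEC lay under the filter in every cow, and FABP4, which endothelium also expresses, was bright in all 14, at 12.57 and 11.64 against 12.18 to 13.14. ACTA1, CKM and MYH1 of the muscle list (4 of 5 matched) also lay under the filter in every cow, and that list averaged 3.95 and 3.82 against 3.96 to 4.28. The gap between the 3′ and 5′ GAPDH control probe sets, a measure of RNA degradation, was 0.80 and 0.78 log2 against 0.81 to 1.40, and 6 spike-in control probe sets (lys and phe) averaged 5.86 and 5.60 against 6.31 to 6.92. The part of these differences in the results below was not tested. In bulk tissue, fewer cells of a type and less RNA per cell cannot be told apart.

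The diet comparison asked how linseed around calving altered expression in the gland. No beta-oxidation enzyme passed the test. CPT2 and ACOT8 had higher means in Omega cows, and HADHB, ACADVL, ACOX3 and HADHA lower ones. With limma, 0 of 7518 probe sets (0.0%) had a Benjamini-Hochberg adjusted p under 0.05, and 827 (11.0%) had an unadjusted p under 0.05, 3.78% as higher and 7.22% as lower in Omega. Of the 6 enzymes 1, ACOT8, was among these. The same direction in at least 6 of 7 blocks was seen in 2 of the 6, CPT2 and ACOX3, and in 20.9% of all tested probe sets. Higher in Omega in at least 6 blocks, like CPT2, were 8.06%, and lower, like ACOX3, 12.8%.

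**Figure D1:**
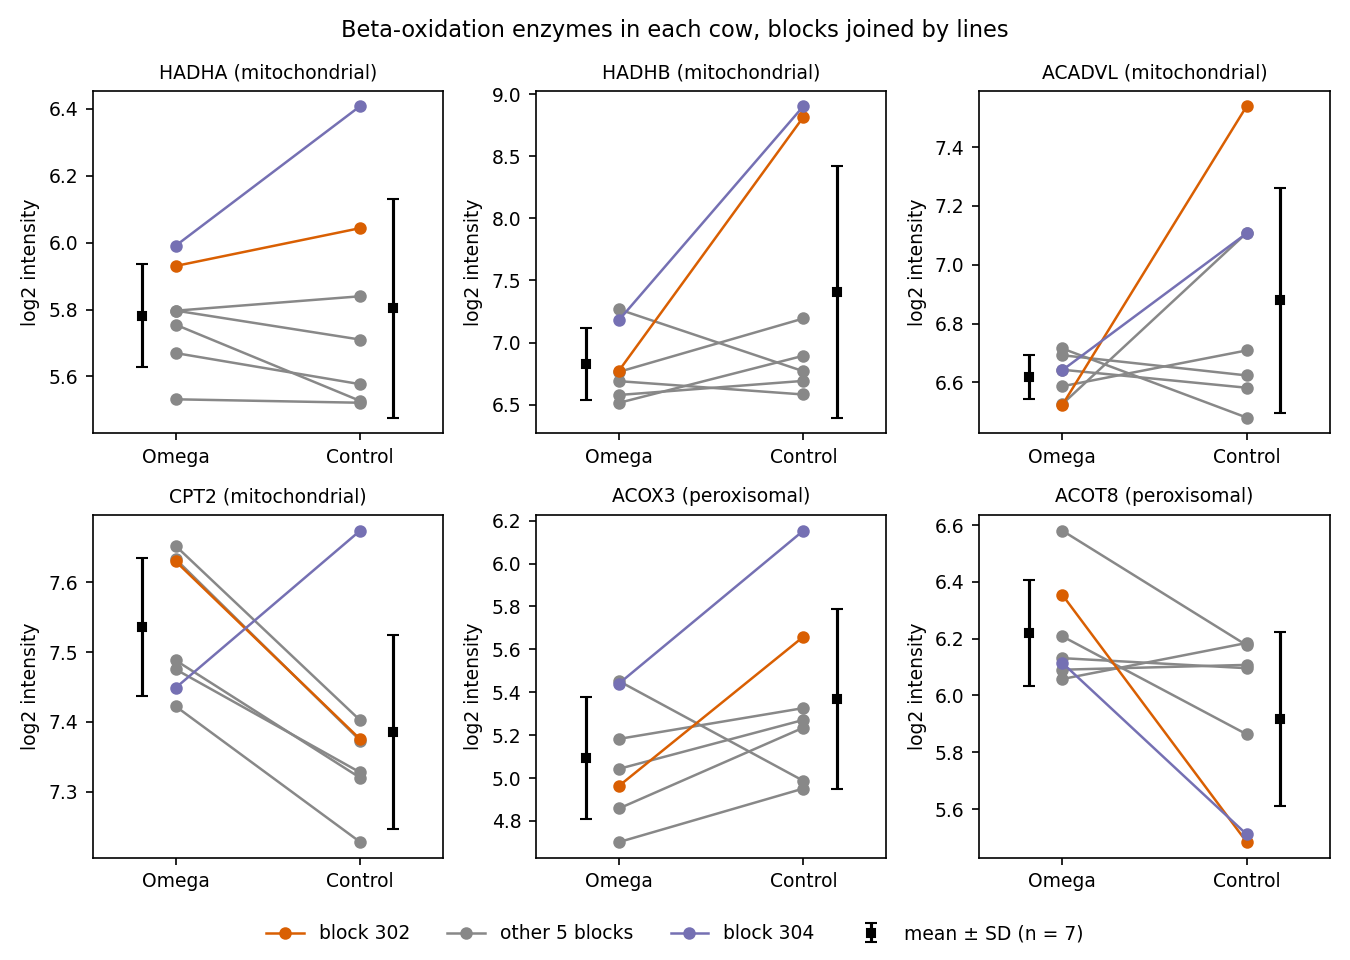
Log2 intensity of the 6 enzymes in each cow, with Omega at the left and Control at the right of each panel, lines joining the 2 cows of a block and squares giving mean ± SD (n = 7). The Control cows of blocks 302 and 304 hold the highest HADHB values, 8.82 and 8.90, and the lowest ACOT8 values, 5.48 and 5.51.

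CPT2 reached 7.42 at the lowest, 7.49 at the median and 7.65 log2 at the highest in Omega cows, against 7.23, 7.37 and 7.67 in Control cows. The groups overlapped through 1 cow, the Control cow of block 304, which held the highest value of all 14. Omega exceeded Control by 0.25, 0.19, 0.17, 0.26, 0.15 and 0.25 log2 in blocks 302, 303, 305, 306, 307 and 308. In block 304 the difference was -0.23. The means were 7.54 ± 0.10 with linseed (Omega) and 7.39 ± 0.14 without it (Control; SD, n = 7 each), a difference of 0.15 log2 (95% confidence interval -0.04 to 0.34, limma adjusted p = 0.493). An exact sign-flip test of the 7 block differences (two-sided) gave p = 0.0781, where 0.0156 is the smallest it allows.

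Without blocks 302 and 304 the CPT2 difference was 0.20 log2 (0.02 to 0.39), with all 5 Omega cows above all 5 Control cows. Non-overlap of this kind, in either direction, was found in 1.17% of all tested probe sets, a count added after seeing the data. For CPT2 it followed from leaving out block 304, whose Control cow was the only one above the lowest Omega value, so it is no test. The limma adjusted p was 0.744. The unadjusted p was 0.0330, and 6.57% of all tested probe sets had one under 0.05. The sign-flip p was 0.0625, the smallest that 5 blocks allow. This too was fixed by leaving out block 304, the only block with a negative difference. In the 4 blocks in which both cows had parity 3 or higher the difference ran from 0.15 to 0.25. CPT2 was the enzyme of the 6 with the narrowest range over the 14 cows, 0.45 log2.

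ACADVL lay between 6.52 and 6.72 log2 in Omega cows (median 6.64) and between 6.48 and 7.54 in Control cows (median 6.71). The Omega values were close together, and 3 Control cows, of blocks 302, 304 and 307, stood above them at 7.54, 7.11 and 7.11. The means were 6.62 ± 0.08 with linseed (Omega) and 6.88 ± 0.38 without it (Control; SD, n = 7 each), a difference of -0.26 log2 (-0.60 to 0.08, limma adjusted p = 0.505). Omega was lower in 4 of 7 blocks. Without blocks 302 and 304 the difference was -0.07 (-0.36 to 0.22).

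The subunits of the trifunctional protein are encoded by neighbouring genes in the RefSeq annotation of assembly ARS-UCD2.0. HADHB, the thiolase subunit, ranged from 6.51 to 7.27 log2 in Omega cows (median 6.76) and from 6.58 to 8.90 in Control cows (median 6.89). The Control cows of blocks 302 and 304 were at 8.82 and 8.90, and the remaining 12 cows at 7.27 or below. The block differences of these 2 pairs were -2.04 and -1.72 log2, and those of the other 5 pairs lay between -0.43 and 0.50. The mean difference was -0.58 (-1.25 to 0.08), or 0.667-fold, from 6.82 ± 0.29 with linseed (Omega) and 7.41 ± 1.01 without it (Control; SD, n = 7 each, limma adjusted p = 0.473). Omega was lower in 5 of 7 blocks, and the exact sign-flip p was 0.203. Without the 2 blocks the difference was -0.06 (-0.39 to 0.26), from 6.76 ± 0.30 with linseed (Omega) and 6.83 ± 0.24 without it (Control; SD, n = 5 each).

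HADHA, the hydratase and dehydrogenase subunit, ranged from 5.53 to 5.99 log2 in Omega cows (median 5.80) and from 5.52 to 6.41 in Control cows (median 5.71). The groups overlapped almost wholly, and the same 2 Control cows, at 6.04 and 6.41, were again above the other 12. Their mean exceeded that of the other 12 cows by 0.51 log2 for HADHA and by 2.04 for HADHB. Of all tested probe sets, 30.5% had a larger gap in size than HADHA and 0.971% a larger one than HADHB. The diet difference of HADHA was -0.02 (-0.23 to 0.18, limma adjusted p = 0.915), from 5.78 ± 0.15 with linseed (Omega) and 5.80 ± 0.33 without it (Control; SD, n = 7 each). Omega was higher in 4 of 7 blocks, and without blocks 302 and 304 the difference was 0.07 (-0.12 to 0.27).

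**Figure D2:**
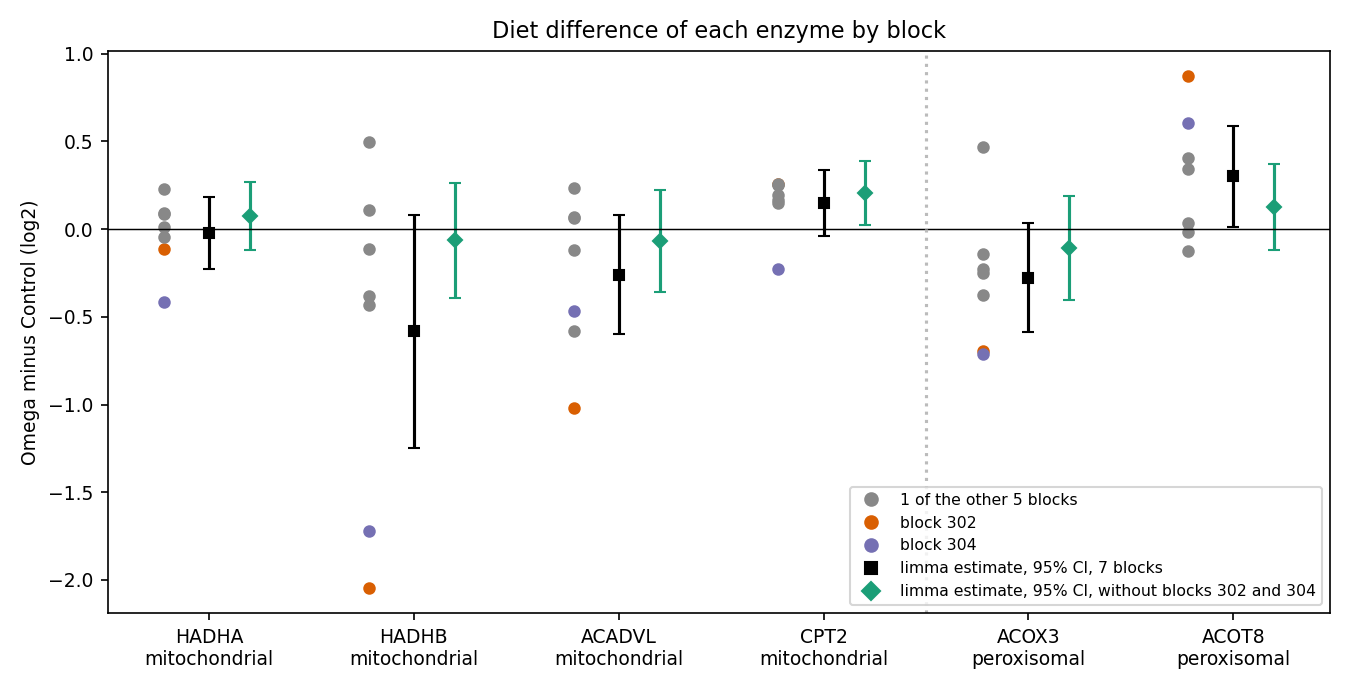
Omega minus Control in log2 for each enzyme, with circles for the blocks and squares and diamonds for the limma estimates with their 95% confidence intervals over 7 blocks and without blocks 302 and 304. HADHB differed by -2.04 and -1.72 in blocks 302 and 304, and the estimate for CPT2 was 0.15 over 7 blocks and 0.20 without them.

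ACOX3, the peroxisomal oxidase, ranged from 4.70 to 5.45 log2 in Omega cows (median 5.04) and from 4.95 to 6.15 in Control cows (median 5.27). It was lower in Omega in 6 of 7 blocks, with differences of -0.70, -0.25, -0.71, -0.38, -0.23 and -0.14 in blocks 302, 303, 304, 305, 306 and 308 and of 0.47 in block 307. The Control cows of blocks 302 and 304, at 5.66 and 6.15, were above the other 12. The means were 5.09 ± 0.28 with linseed (Omega) and 5.37 ± 0.42 without it (Control; SD, n = 7 each), a difference of -0.28 (-0.59 to 0.03, limma adjusted p = 0.468, exact sign-flip p = 0.125). Without the 2 blocks it was -0.11 (-0.40 to 0.19), lower in 4 of 5.

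ACOT8 ranged from 6.06 to 6.58 log2 in Omega cows (median 6.13) and from 5.48 to 6.18 in Control cows (median 6.10). The Control cows of blocks 302 and 304 were at 5.48 and 5.51, below the other 12, so this enzyme went the opposite way to HADHA, HADHB and ACOX3 in them. The mean difference was 0.30 (0.01 to 0.59), or 1.23-fold, from 6.22 ± 0.19 with linseed (Omega) and 5.92 ± 0.31 without it (Control; SD, n = 7 each). Its unadjusted p was 0.0417 and its limma adjusted p 0.450. Omega was higher in 5 of 7 blocks, and the exact sign-flip p was 0.0938. Without blocks 302 and 304 the difference was 0.13 (-0.12 to 0.37).

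By compartment, the mitochondrial enzymes had differences between -0.58 and 0.15 log2 and the peroxisomal pair -0.28 and 0.30. The median over the 6 was -0.14, against -0.03 over all tested probe sets. Without blocks 302 and 304 it was 0.01, against -0.01, and 4 of the 6 estimates lay closer to 0. Both cows lay outside the range of the other 12 in 4 of the 6 enzymes, 3 above and 1 below, beside 37.2% of all tested probe sets.

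Covariation over the cows was examined for the 15 pairs of enzymes. Over all 14 cows, HADHB varied together with ACADVL (r = 0.78), ACOX3 (0.77) and HADHA (0.75) and against ACOT8 (-0.85). HADHA varied with ACOX3 (0.70) and CPT2 (0.58), and ACOT8 against ACADVL (-0.70) and ACOX3 (-0.63). These 8 pairs had a permutation p under 0.05 after Benjamini-Hochberg adjustment over the 15 pairs (two-sided, 100000 resamples), between 0.0189 and 0.0469. Values of r of about this size were common among all pairs of tested symbols, with outer deciles of -0.57 and 0.60. The share of all pairs that would pass the same permutation test was not counted. Of all pairs of tested symbols, 97.4% had a lower r than HADHB with ACADVL and 89.1% a lower r than HADHA with CPT2. A lower r than ACOX3 with ACOT8 was found in 7.34%, and a lower r than HADHB with ACOT8 in 0.574%. With Spearman's rho 0 of 15 passed. The strongest was HADHB with ACOT8, at rho = -0.65 (permutation p = 0.0145, adjusted 0.218), and HADHA with HADHB had rho = 0.50 (permutation p = 0.0742, adjusted 0.311).

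**Figure D3:**
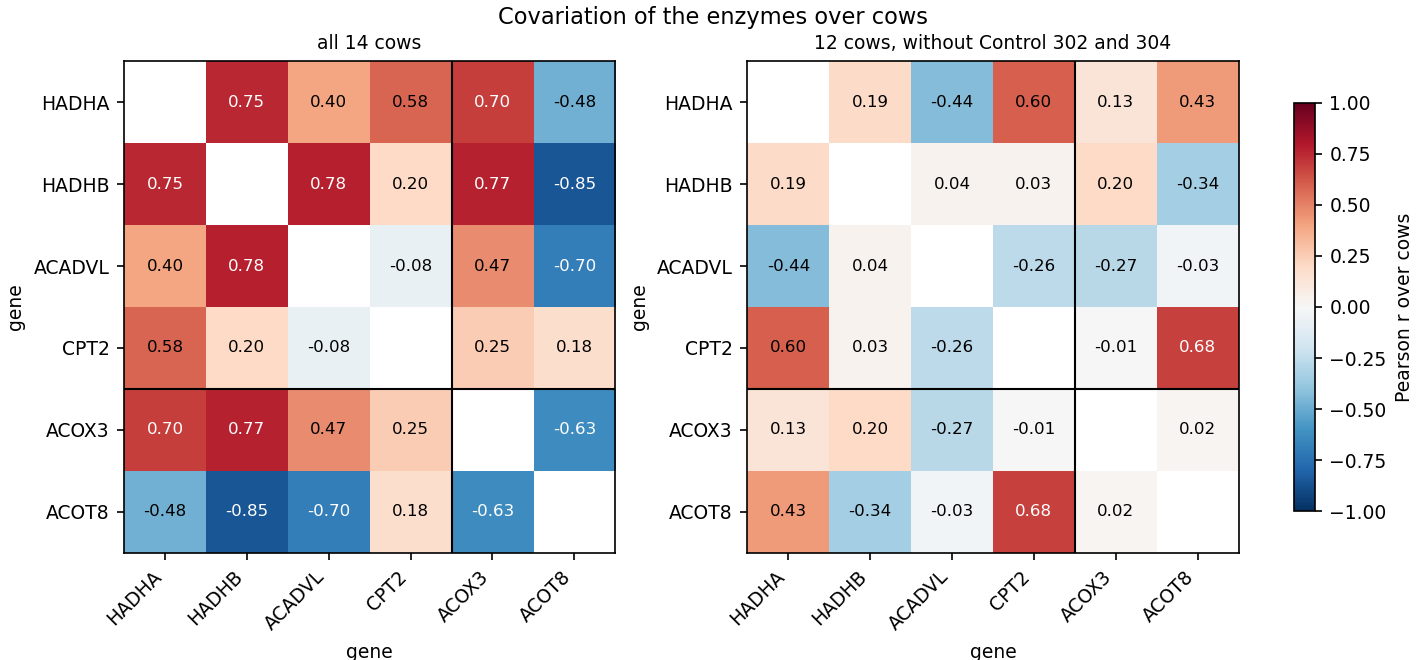
Pearson r between the 6 enzymes over all 14 cows at the left and over 12 cows at the right, with lines separating mitochondrial from peroxisomal genes. HADHB with ACOT8 was at -0.85 over 14 cows and at -0.34 over 12, and CPT2 with ACOT8 at 0.18 and 0.68.

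Most of these relations rested on the Control cows of blocks 302 and 304. Over the other 12 cows 0 of 15 pairs passed after adjustment. HADHB then had r = 0.04 with ACADVL, 0.20 with ACOX3, 0.19 with HADHA and -0.34 with ACOT8. The pair HADHA and CPT2 was at r = 0.60 over the 12 cows (permutation p = 0.0428, adjusted 0.321) and at rho = 0.59 (permutation p = 0.0498, adjusted 0.579), and at r = 0.31 over 14 cows after quantile normalization. CPT2 and ACOT8, the enzymes with higher Omega means, were at r = 0.68 over 12 cows (permutation p = 0.0121, adjusted 0.182). Their rho was 0.41 (permutation p = 0.193, adjusted 0.579), and these values were not adjusted for diet. Over 14 cows this pair was at r = 0.18, at -0.25 on residuals after diet and block, and at 0.57 after quantile normalization. With a block left out its r ran from -0.01 to 0.56. Leaving out the 2 cows farthest from the median of the first gene gave the 12-cow values for the HADHA and HADHB pairs, as they were the same cows. Of the other pairs, ACOX3 with ACOT8 was then at -0.40, with Omega 303 and Control 304 left out. ACADVL was at -0.61 with ACOT8 and at 0.62 with ACOX3, with Control 302 and Control 307 left out. Each choice thus kept in Control 302 or Control 304. Over the 12 cows these pairs were at 0.02, -0.03 and -0.27.

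Grouped by compartment, the 6 mitochondrial pairs had a median r of 0.49 over 14 cows (-0.08 to 0.78), the 8 pairs across compartments 0.22 (-0.85 to 0.77) and the peroxisomal pair -0.63. Over the 12 cows the values were 0.04, 0.06 and 0.02. Over all 12159846 pairs of the 4932 tested symbols, the median r was 0.02 and the outer deciles -0.57 and 0.60 with 14 cows, and 0.01, -0.45 and 0.47 with 12 cows. All these pairs share the same arrays.

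By the highest Pearson r over the 14 cows among 4931 other tested symbols, HADHB was most like TAX1BP3 (0.983) and CASP4 (0.982), which were at 0.839 and 0.809 over the 12 cows. HADHA was most like CD96 (0.905) and RBM43 (0.892), ACADVL like LMO4 (0.929) and HMGN2 (0.912), ACOX3 like TFCP2 (0.919) and INTS10 (0.908), and ACOT8 like CHRND (0.940) and MIER2 (0.934). CPT2 was most like MRPL38, a mitochondrial ribosomal protein (0.861), and AZGP1, a secreted glycoprotein (0.796). Over 12 cows these were at 0.866 and 0.888, and CPT2 with AZGP1 was thus higher without the 2 cows. The genes were picked for these values, so they carry no test.

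The wider pathway was described by a list of 45 genes of the carnitine shuttle and of mitochondrial and peroxisomal oxidation, of which 31 were matched and 27 tested. In Omega cows 12 were higher and 15 lower, with a median of -0.02 log2, against -0.03 and 43.1% higher over all tested probe sets. By limma 0 of 27 passed, and 2, SLC25A20 and ACOT8, had an unadjusted p under 0.05, against 11.0% of all. Without blocks 302 and 304, 15 of 27 were higher and the median was 0.03, against -0.01 and 46.4% higher over all.

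In the carnitine shuttle 3 of 6 genes were tested, with 1 higher, 2 lower and a median of -0.05 log2. SLC25A20, the carrier that brings acylcarnitines through the inner membrane to CPT2, averaged 6.09 ± 0.24 with linseed (Omega) and 6.44 ± 0.27 without it (Control; SD, n = 7 each). It was lower in Omega in 7 of 7 blocks, as were 2.27% of all tested probe sets, and 1.29% were higher in all 7. Its difference was -0.35 (-0.59 to -0.11), with an unadjusted p of 0.00854 and a limma adjusted p of 0.447, and it was -0.30 without blocks 302 and 304. CPT2, the next step of the same route, had its higher mean in Omega. CRAT, which joins short chains to carnitine, differed by -0.05.

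In the mitochondrial list 14 of 20 genes were tested, with 8 higher, 6 lower and a median of 0.04 log2. ACADSB, a dehydrogenase of short branched chains, differed by -0.29, ACAD11 by 0.22 and the thiolase ACAA2 by -0.20. These differences were -0.17, 0.05 and -0.03 without blocks 302 and 304. ETFA, a subunit of the flavoprotein that takes electrons from the dehydrogenases, differed by 0.14 (0.17 without the 2 blocks) and was higher in Omega in 6 of 7 blocks. The limma adjusted p of these 4 genes lay between 0.521 and 0.536.

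In the peroxisomal list 10 of 19 genes were tested, with 3 higher, 7 lower and a median of -0.21 log2. Without blocks 302 and 304, 6 of 10 were higher and the median was 0.03. CROT, which makes medium-chain carnitine esters for export from peroxisomes, was at 7.90 and 8.96 log2 in the 2 Control cows and between 5.42 and 6.65 in the other 12. Its difference was -0.70 over 7 blocks and 0.05 without these 2. ABCD3, a transporter of the peroxisomal membrane, was at 6.18 and 6.17 against 4.13 to 5.06, with differences of -0.52 and -0.13. The thiolase and sterol carrier SCP2 differed by -0.31 and 0.05, and PHYH, the hydroxylase of alpha-oxidation, by -0.24 and -0.03. The limma adjusted p over 7 blocks lay between 0.465 and 0.545 for these 4 genes.

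Both Control cows lay outside the range of the other 12 in 8 of the 10 tested peroxisomal genes. ACOX3, HSD17B4, SCP2, CROT, ABCD3 and PHYH were above it and ACOT8 and DECR2 below it. In the mitochondrial list this held for 5 of 14 genes, with HADHA, HADHB and ACAA2 above and ECHS1 and ECI1 below, and in the carnitine shuttle for 0 of 3. Over all tested probe sets the share was 37.2%. The difference between the lists was not tested.

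**Figure D4:**
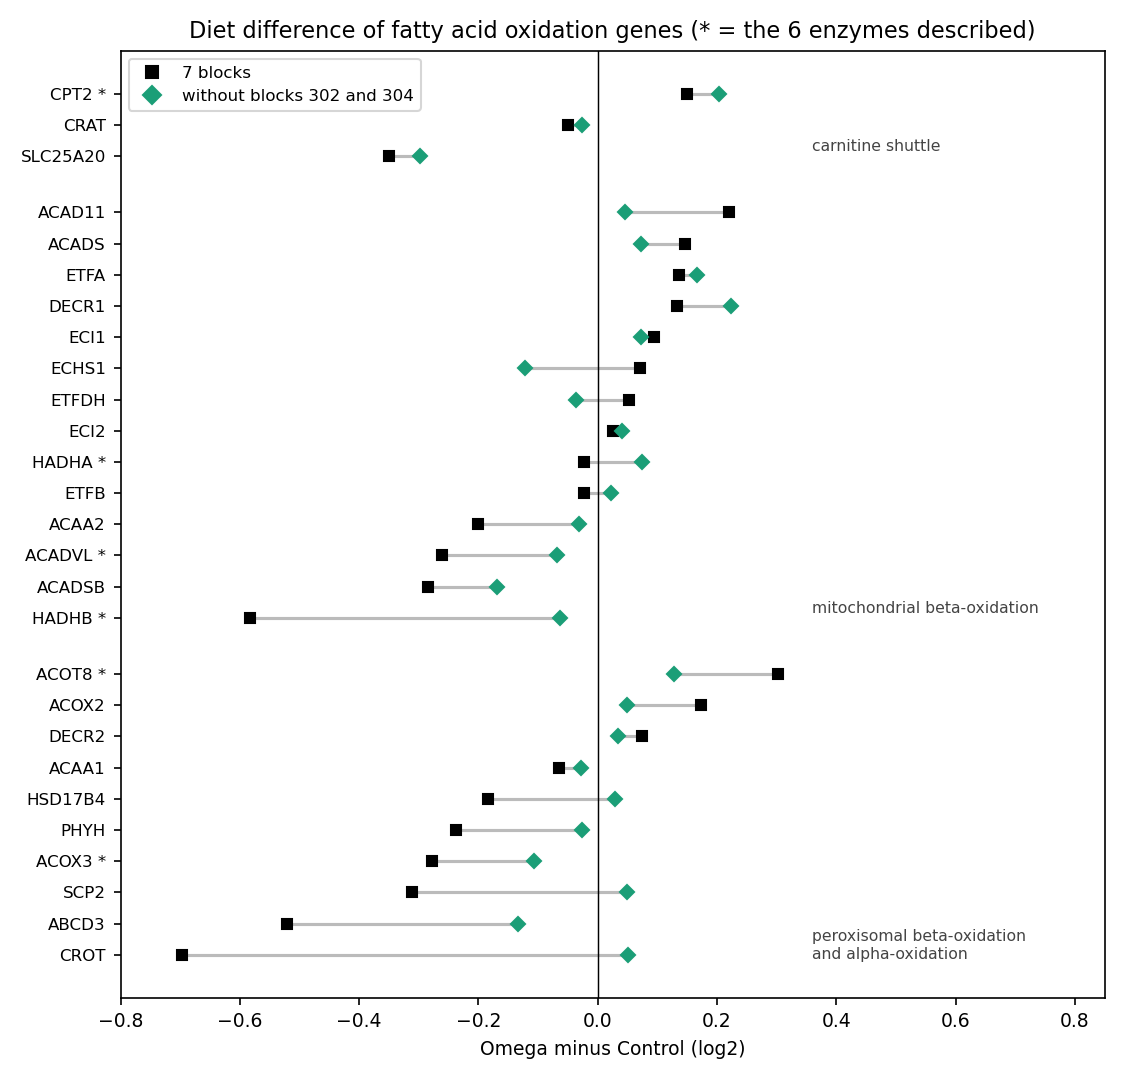
Omega minus Control in log2 for the 27 tested genes of fatty acid oxidation, grouped by list, with squares for the estimates over 7 blocks and diamonds for those without blocks 302 and 304. CROT was at -0.70 and 0.05 and HADHB at -0.58 and -0.06, and SLC25A20 was at -0.35 and -0.30.

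Parity was compared between the 4 cows labelled parity 1 (blocks 302 and 306) and the 10 cows labelled higher, with diet in the fit and the block as a random effect. No enzyme passed the test. With limma 0 of 7518 probe sets (0.0%) passed, 165 (2.19%) had an unadjusted p under 0.05 (1.26% higher and 0.931% lower in parity 1), and 0 of the 6 enzymes were among these. The parity 1 mean was the higher one in 5 of 6 enzymes and in 55.7% of all tested probe sets.

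HADHB had a parity difference of 0.41 log2 (-0.45 to 1.26, limma adjusted p = 0.983), with 7.41 ± 0.97 in parity 1 cows (SD, n = 4) and 7.00 ± 0.71 in the others (SD, n = 10). The exact permutation test of 4 against 10 cows gave p = 0.410, two-sided. It shuffled single cows without regard to block or diet, although the parity 1 cows made up blocks 302 and 306. Parity 1 cows ranged from 6.77 to 8.82, the 2 cows of parity 2 were at 7.18 and 8.90, and the 8 older cows ranged from 6.51 to 7.19. The top value of each of the younger classes came from 1 of the 2 Control cows that stood apart, and without these cows the difference was 0.15. Leaving out block 302 gave 0.019, leaving out block 304 gave 0.67 and leaving out block 306 gave 0.80. With parity as a linear covariate, an alternative fit, HADHB was higher by 0.24 log2 per lactation fewer. Its unadjusted limma p was 0.0131 and its limma adjusted p 0.164. This fit kept the 2 Control cows that stood apart. In it 1742 of the 7518 tested probe sets had an unadjusted p under 0.05.

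HADHA ranged from 5.71 to 6.04 log2 in parity 1 cows, was at 5.99 and 6.41 in parity 2 cows, and ranged from 5.52 to 5.84 in older cows. Its difference was 0.11 (-0.21 to 0.43, limma adjusted p = 0.983) with all cows and 0.11 without the 2 Control cows. CPT2 differed by 0.06 and by 0.11 without them. The 4 parity 1 cows split by diet for CPT2, at 7.63 and 7.63 in Omega and 7.38 and 7.37 in Control.

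The other 3 enzymes changed sign when the 2 Control cows were left out. ACADVL differed by 0.10 with all cows and by -0.09 without them, ACOX3 by 0.01 and -0.03, and ACOT8 by -0.07 and 0.04. The limma adjusted p was 0.983 or higher throughout with all cows. In a fit added after seeing the data, the diet difference did not pass a test of change with parity class in any of the 6 (limma adjusted p = 1.00).

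**Figure D5:**
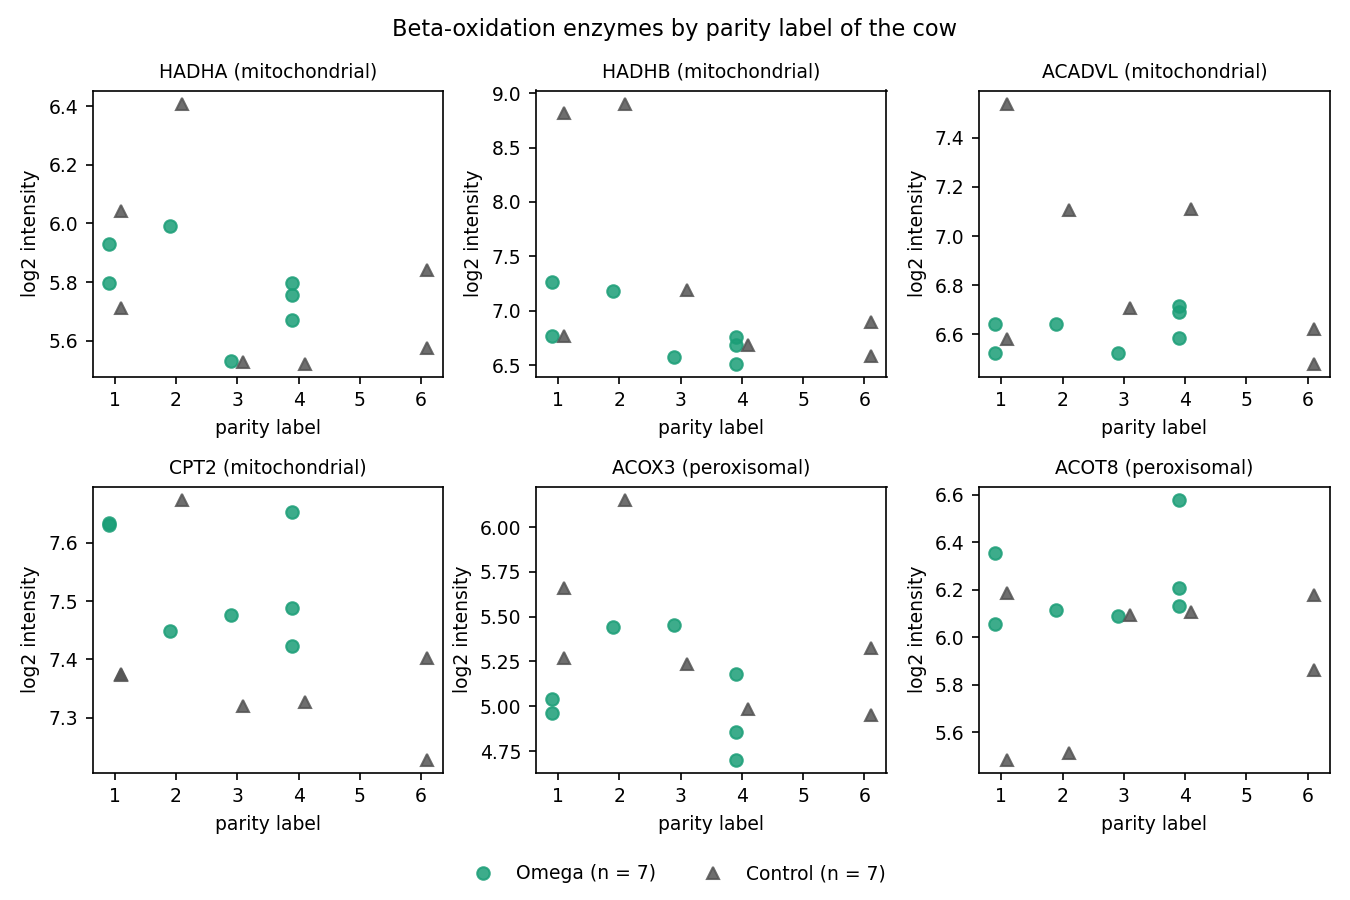
Log2 intensity of the 6 enzymes (vertical axis) by parity label (horizontal axis), with circles for Omega and triangles for Control cows, 4 cows of parity 1, 2 of parity 2 and 8 of parity 3 or higher. HADHA reaches 6.41 in parity 2 and lies between 5.52 and 5.84 in parity 3 or higher.

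In the oxidation list 18 of 27 genes had the higher mean in parity 1 cows, with a median of 0.07 log2, against 55.7% and 0.02 over all tested probe sets, and 0 of 27 had an unadjusted p under 0.05. The split was 2 higher and 1 lower in the carnitine shuttle, 9 and 5 in the mitochondrial list and 7 and 3 in the peroxisomal list. HSD17B4, the multifunctional enzyme of peroxisomes, differed by 0.30 and by 0.23 without the 2 Control cows. The electron carriers ETFDH and ETFA differed by 0.19 and 0.14 with all cows and by 0.24 and 0.08 without these 2, and the peroxisomal thiolase ACAA1 by 0.10 and 0.04. SLC25A20 differed by -0.06 and by -0.09 without them, and CRAT turned sign, at 0.05 and -0.01.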

How the data were processed

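Per the labels, RNA of mammary tissue was hybridised to 1 Affymetrix array per cow. The authors deposited log2 intensities, and RMA and GCRMA are named in the submitters' processing notes. The sources used here do not say which of them made the values. Such values are compressed at the low and high ends. Of 10852 rows, 112 were control probe sets and 6749 of 10740 probe sets named by RefSeq accession matched 1 symbol in the ARS-UCD2.0 RefSeq table. Probe sets with a mean above the 30th percentile, 4.59 log2, were tested. The number of arrays limits the precision: the median half-width of the 95% interval of a diet difference was 0.26 log2.

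Diet was fitted with limma 3.58.1 (R 4.3.3) with the block as a fixed effect, and parity with diet and a random block. Benjamini-Hochberg adjustment ran over all 7518 probe sets, with a threshold of 0.05. The pairing comes from the block labels. Cows of a block deviated from their diet's mean with r of -0.47 to 0.32, above 0.1 in 3 of 7 blocks. The fits were also run on simulated data with independent noise, without block effects or cows that stood apart. That outcome is not reported here. Up to 4 genes per list were named by the smallest diet p and 2 by the smallest parity p, and the 2 most alike genes per enzyme by r. A few genes selected in this way are not reported here. ACADM had no matched probe set, so 15 pairs replaced the planned number. The members and lists were chosen with earlier results of these data known. Cell type lists covered epithelium, adipocytes, fibroblasts, leucocytes, muscle, endothelium and inflammation. Alternatives varied the block, filter, variance model, array weights, normalization and covariates and left out each block.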

Additional observations from a re-analysis of the deposited data

Results flagged for a closer look

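Over 30 genes in both diet groups, 60 groups of 7 cows were examined for a cow whose gap to the next exceeded 0.568 of the group's range, Dixon's critical value. Chance flags about 1 in 20 groups, and 2 of 60 were found. CPT2 was at 7.67 log2 in the Control cow of block 304, with the next Control cow at 7.40. MCEE, the methylmalonyl-CoA epimerase of propionate metabolism, was at 8.35 log2 in the Omega cow of block 306, with the next Omega cow at 7.81.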

How the results depend on the processing

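The count of probe sets past the threshold was 0 in the main diet and parity fits and in all 16 alternatives of each. The counts at an unadjusted p under 0.05 ran from 434 to 1229 for diet (827 in the main fit) and from 80 to 1742 for parity (165), the highest with parity as a linear covariate. For diet, 516 were left without block 303 and 434 without block 304, and for parity 85 without block 302, 102 without block 305 and 1103 without block 304. Without the replicate block, 0 passed and 791 had an unadjusted p under 0.05 for diet. As the main fit also had 0 past the threshold, there was no call that leaving out the pairing could remove. None of the 93 alternatives over the 6 enzymes for diet, or of the 93 for parity, brought one past the threshold. The smallest limma adjusted p was 0.302 for diet and 0.164 for parity. For diet, HADHA was -0.02 log2 in the main fit, 0.038 with array weights and 0.075 without blocks 302 and 304, and with each block left out it ran from -0.064 to 0.044. For parity, leaving out each block gave 0.019 to 0.80 for HADHB, -0.0081 to 0.23 for HADHA, -0.11 to 0.31 for ACADVL, -0.10 to 0.15 for ACOX3 and -0.17 to 0.033 for ACOT8. Without the 2 Control cows that stood apart, ACADVL was at -0.086, ACOX3 at -0.031 and ACOT8 at 0.035. With previous milk yield as a covariate, HADHA was at -0.28, CPT2 at -0.21 and ACOX3 at -0.66. By the labels that yield was 2110 to 2771 in parity 1 cows and 3635 to 4841 in the others. The ranges do not overlap, so parity class and yield can hardly be told apart in this fit. The cause of these turns was not tested.

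The median r of the mitochondrial pairs, 0.49, was 0.24 with Spearman's rho, 0.57 on residuals after diet and block, 0.29 after quantile normalization and 0.035 without the 2 Control cows. With each block left out it ran from 0.38 to 0.57. The median r across compartments, 0.22, was -0.010 on residuals, 0.12 after quantile normalization and 0.061 without the 2 cows, and ran from 0.089 to 0.28 with a block left out. The peroxisomal pair, -0.63, was -0.45 with rho and 0.023 without the 2 cows, and ran from -0.73 to -0.42 with a block left out. The choice among several probe sets of an enzyme was not run, since each had 1. The median of the oxidation list lay between -0.05 and 0.03 log2 in its 16 diet alternatives.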

Other observations

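Propionate carbon enters the citric acid cycle through PCCA, MCEE and MMUT. Of the ketone body and propionate list 7 of 9 genes were tested, with 5 higher and 2 lower in Omega and a median of 0.16 log2. With blocks 302 and 304 left out, 4 of 7 were higher and the median was 0.10. PCCA, a subunit of propionyl-CoA carboxylase, averaged 7.88 ± 0.16 with linseed (Omega) and 7.64 ± 0.12 without it (Control; SD, n = 7 each), a difference of 0.24 (0.06 to 0.41, unadjusted p = 0.0129, limma adjusted p = 0.447). It was higher in Omega in 7 of 7 blocks, as were 1.29% of all tested probe sets, and the difference was 0.23 without blocks 302 and 304. MMUT, the mutase, differed by 0.16 and was higher in 6 of 7 blocks, MCEE differed by 0.16 and ACAT1 by -0.19. Without the 2 blocks MMUT was at 0.10, MCEE at 0.29 and ACAT1 at -0.07. By parity the list had 4 higher and 3 lower, with PCCA at 0.12.

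Of the peroxisome assembly and catalase list 7 of 17 genes were tested, with 3 higher and 4 lower in Omega and a median of -0.09 log2. PEX2 differed by -0.12 and PEX5 by 0.11. CAT, which breaks down hydrogen peroxide, differed by -0.18 and by -0.01 without blocks 302 and 304. By parity 3 were higher and 4 lower, with PEX5 at -0.09 and CAT at 0.15. Without the 2 Control cows that stood apart, these were at -0.05 and 0.00057. Of 9 regulators 2 were tested, PPARD at 0.18 and NRF1 at 0.07 by diet, and -0.15 and 0.02 by parity. The diet differences were 0.03 for PPARD and -0.01 for NRF1 without blocks 302 and 304, and without the 2 Control cows the parity differences were -0.08 and 0.14.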
